A study of Mus musculus with 15 samples.

Results

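Cristae are the folds of the inner mitochondrial membrane that hold the respiratory chain, and 10 genes that shape them or tie them to the outer membrane were examined in mouse gastrocnemius, out of 55450 genes counted. They were taken as a listed group by symbol, each symbol matched 1 Ensembl gene of the counted table, and all 10 passed the filter on low counts that left 16920 genes for testing. The muscle came from 15 females of strain C57BL/6JN, all above 17 months of age, with no genetic modification in any group. Low mice, called robust in the sample labels, had few positive markers of frailty, and High mice, called frail, had more. Run mice had run downhill on a treadmill in 2 bouts at 13 m/min and a decline of 22 degrees, with tissue taken 24 h after the last bout, and Control mice stayed sedentary in their cages. The Low group had 4 Control and 4 Run mice, and the High group 3 and 4. The frailty markers were measured in the same mice, so frailty was observed rather than assigned. Each library was made from powdered whole muscle of 1 mouse, in which fewer cells of a type and less RNA per cell cannot be told apart.

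The mitochondrial contact site and cristae organizing system, MICOS, is a complex of the inner membrane that sits at the narrow neck of each crista, the crista junction. It has a mitofilin arm, built on Immt (MIC60) with Chchd3 (MIC19) and Chchd6 (MIC25), and an arm with Apoo (MIC26), Apool (MIC27), Minos1 (MIC10) and 2410015M20Rik (MIC13). The mitofilin arm reaches across the intermembrane space to the sorting and assembly machinery of the outer membrane, where Samm50 folds barrel-shaped proteins into the membrane with the metaxins Mtx1 and Mtx2, and Dnajc11 is a J-domain protein of the same bridge. Opa1, a dynamin-like GTPase, fuses inner membranes and keeps crista junctions tight. Skeletal muscle mitochondria are known for densely packed cristae.

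Depth ranged from 19395125 to 30699216 counts per mouse. At this depth the members' counts in a mouse lay between 51, for Chchd6 in Low Control mouse D9, and 9828, for Immt in High Run mouse D52. Mice D9 and D62 (High Run) stood apart from the rest: on the first principal component of all tested genes, with 27.9% of the variance, they lay at -90.3 and -58.1, and the other 13 between -19.7 and 27.8. Values without these mice are given beside the differences the results turn on. The 10 myofibre markers summed to between 167474 and 246242 CPM in a mouse, the tissue named in the labels. CPM is a gene's count as a share of its library, with library sizes scaled by TMM, the trimmed mean of M-values.

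The promoters of 9 of the 10 members were in a RefSeq table of 300-base windows on GRCm38.p6, running from 250 bases before a transcription start to 50 bases from it, and 10 member windows were found, as Apoo had more than 1 start. They are shown for Apool and Samm50, the pair of members whose levels moved most closely together from mouse to mouse, and for Opa1, whose levels did not follow theirs. Capitals mark SP1 (GGGCGG, or CCGCCC where it lies on the other strand) and NRF1 (GCGCATGCG) letters, 5′ to 3′ on the gene's strand, which is the plus strand for all of them.
Apool, chrX:112311102-112311401: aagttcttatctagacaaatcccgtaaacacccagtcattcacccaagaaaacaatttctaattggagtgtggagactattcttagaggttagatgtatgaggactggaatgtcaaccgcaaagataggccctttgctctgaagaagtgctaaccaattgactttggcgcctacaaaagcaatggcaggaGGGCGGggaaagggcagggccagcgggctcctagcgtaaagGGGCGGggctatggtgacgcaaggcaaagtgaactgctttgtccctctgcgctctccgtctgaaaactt
Samm50, chr15:84191990-84192289: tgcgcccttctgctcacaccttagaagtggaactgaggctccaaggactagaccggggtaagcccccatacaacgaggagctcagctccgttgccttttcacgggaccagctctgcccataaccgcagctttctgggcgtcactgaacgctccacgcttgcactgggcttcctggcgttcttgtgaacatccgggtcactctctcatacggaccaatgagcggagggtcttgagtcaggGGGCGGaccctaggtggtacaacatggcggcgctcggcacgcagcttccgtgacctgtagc
Opa1, chr16:29579084-29579383: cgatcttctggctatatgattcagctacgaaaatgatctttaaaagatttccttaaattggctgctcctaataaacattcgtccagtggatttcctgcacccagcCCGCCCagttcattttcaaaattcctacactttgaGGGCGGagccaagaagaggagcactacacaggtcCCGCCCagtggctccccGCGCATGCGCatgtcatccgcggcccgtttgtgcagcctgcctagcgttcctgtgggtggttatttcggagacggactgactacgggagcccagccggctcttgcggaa

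Both strands of all windows were searched for 6 motifs, and every match was a match of letters only. SP1 letters were in the windows of 5 members (Apool, Mtx1, Mtx2, Opa1 and Samm50), and 35.7% of the 32851 windows in the table hold them. The NRF1 motif, named for a factor known for nuclear genes of the respiratory chain, was in the Opa1 window alone among members, and 1.75% of all windows hold it. Counted from the start base as 0, it lay at -59 to -51, and on the other strand at -58 to -50, because the run of letters reads nearly the same both ways. GABPA letters (CCGGAAGT, 3.89% of windows) were in the Mtx2 window at -25 to -18 and again at 6 to 13. YY1 letters (AAGATGGC, 2.75% of windows) were in the Mtx1 window and an E-box (CACGTG, 7.15% of windows) in the Chchd3 window. ERR letters (TCAAGGTCA, 0.423% of windows) were in none of the members' windows. GC content ran from 49.3% for Apool to 72.0% for Mtx1, around a median of 52.7% for all windows.

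The members lie on 7 chromosomes (GRCm38, GENCODE M21, whole gene spans, all protein-coding), and 3 of them are on chromosome 6. Immt (ENSMUSG00000052337) spans chr6:71831331-71877388 on the plus strand, Chchd3 (ENSMUSG00000053768) chr6:32790976-33060260 on the minus strand and Chchd6 (ENSMUSG00000030086) chr6:89383146-89595652 on the minus strand. The paralogs Apoo (ENSMUSG00000079508, chrX:94367117-94417093) and Apool (ENSMUSG00000025525, chrX:112311334-112372755) are both on the plus strand of the X chromosome. Opa1 (ENSMUSG00000038084) spans chr16:29579334-29654884, Samm50 (ENSMUSG00000022437) chr15:84192241-84217267 and Dnajc11 (ENSMUSG00000039768) chr4:151933691-151982137, all on the plus strand. Mtx1 (ENSMUSG00000064068) spans chr3:89209081-89227088 on the minus strand and Mtx2 (ENSMUSG00000027099) chr2:74825803-74878431 on the plus strand. Mtx1 overlaps the thrombospondin gene Thbs3 on the opposite strand, and counting was on the same strand as the gene. Chchd3, Chchd6, Samm50 and Mtx2 each overlap a small non-coding or pseudogene model on their own strand, so reads shared with it are uncertain.

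Per kilobase of principal transcript, the members spanned a wide range of levels, led by Chchd3 at 189 ± 25.5 CPM per kb and Immt at 122 ± 11.4 (mean ± SD, n = 15 mice). Both encode the mitofilin arm, and Chchd6, the third gene of that arm, was the lowest member at 3.69 ± 0.807 CPM per kb. Samm50 followed at 53.8 ± 6.43 CPM per kb and Apool at 27.6 ± 4.63. These 4 levels at the top were separated by more than their SDs. Opa1 (16.1 ± 2.66 CPM per kb), Dnajc11 (15.8 ± 1.17), Apoo (13.2 ± 2.04), Mtx2 (9.98 ± 1.76) and Mtx1 (9.53 ± 1.30) each overlapped in spread with the next in this order. The order depended on the length used: per kilobase of all merged exons, which count retained introns too, Immt (29.3 CPM per kb) came after Samm50 (38.0) and Dnajc11 moved from rank 6 to rank 8. Chchd3 stayed first and Chchd6 last on both lengths.

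**Figure D1:**
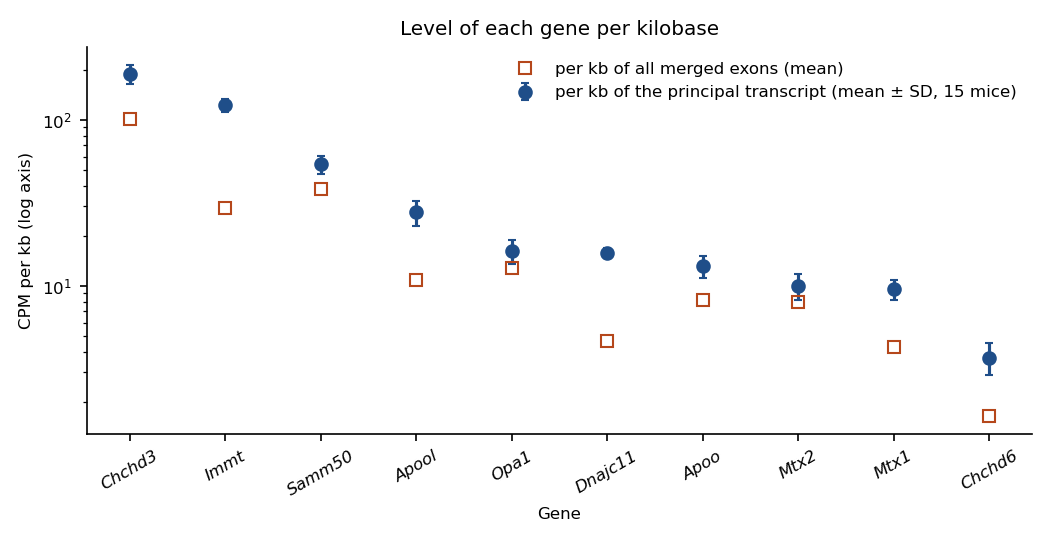
Level of each gene in CPM per kilobase on a log axis. Filled points are the mean ± SD over 15 mice per kb of the principal transcript, and open squares the mean per kb of all merged exons, so that Chchd3 is highest and Chchd6 lowest on both.

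Levels of each member varied between mice by 1.26-fold (Dnajc11, lowest to highest CPM) to 2.59-fold (Chchd6). The next narrowest range was that of Immt at 1.41-fold. Within the paralog pairs, the per-length ratio (merged exons) of Chchd3 to Chchd6 was 73.5 ± 18.7 in Low Control, 58.5 ± 20.4 in their run counterparts, 62 ± 12.0 in High Control and 64.3 ± 14.4 in High Run mice (mean ± SD). Chchd3 exceeded its paralog many times over in each group, and the spreads overlapped. Apoo to Apool stood at 0.839 ± 0.172, 0.712 ± 0.0436, 0.729 ± 0.0675 and 0.799 ± 0.0796 in the same order of groups, and Mtx1 to Mtx2 at 0.481 ± 0.129, 0.567 ± 0.0983, 0.587 ± 0.129 and 0.571 ± 0.0558. These spreads overlapped too. The size of such ratios depended on the length used. Per kb of principal transcript, the mean levels of Mtx1 and Mtx2 were 9.53 and 9.98 CPM, against 4.30 and 8.01 per kb of merged exons. Those of Apoo and Apool were 13.2 and 27.6 CPM, against 8.22 and 10.8.

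To assess how downhill running related to these genes in Low mice, Low Run was compared to Low Control. No member passed the test at an FDR of 0.1, and none of the 16920 genes did (0%), by edgeR's quasi-likelihood test with Benjamini-Hochberg adjustment over all genes. DESeq2's Wald test called 10 genes, of which no member was one, and at an unadjusted p under 0.05 edgeR placed 1002 genes (5.92%) higher and 1272 (7.52%) lower in Low Run mice. Apool was the 1 member among the higher, and 0 members were among the lower. The log2 fold change was above 0 for 8 members and below 0 for 2, with a median of 0.16 beside 0.02 over all genes tested.

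Apool, whose protein binds cardiolipin in the second MICOS arm, was measured at 34.4, 24.4, 35.3 and 36.3 CPM in Low Control mice D8, D9, D11 and D98. In Low Run mice D57, D61, D66 and D68 it was at 44.1, 39.3, 39.6 and 45.8 CPM. Every Low Run mouse was above every Low Control mouse, and D9 lay well under the rest of its group. The log2 fold change was 0.37 ± 0.159 (SE, 95% interval 0.0222 to 0.722), at an unadjusted edgeR p of 0.0315 and an FDR of 0.358. Genes whose groups did not overlap made up 3.35% (higher) and 3.59% (lower) of all genes tested, and Apool was the only such member. Without D9 the difference was 0.25 (edgeR FDR 0.836).

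Samm50, the outer-membrane partner of MICOS, was at 237, 187, 245 and 227 CPM in the same Low Control mice. In Low Run mice it was at 268, 238, 258 and 315 CPM, so that only D61 lay under the highest control. The log2 fold change was 0.27 ± 0.125 (SE), with an edgeR FDR of 0.373, and it was 0.18 without D68 or without D9. Chchd6 is the least abundant member, and its 3.95, 2.11, 4.20 and 3.44 CPM in Low Control mice stood beside 5.46, 4.97, 4.48 and 3.91 CPM in Low Run mice. The groups overlapped through D68, and the difference of 0.46 ± 0.238 (SE, edgeR FDR 0.382) was the widest of the members. Without D9 it was 0.28.

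Immt, the scaffold of the mitofilin arm, was at 313, 373, 333 and 315 CPM in Low Control and at 281, 344, 342 and 370 CPM in Low Run mice. The groups overlapped, with D57 below every Low Control mouse. The log2 fold change was 0.00 ± 0.121 (SE, 95% interval -0.263 to 0.271), with -0.06 without D68 and 0.08 without D57. Its sign turned under RLE scaling (-0.0044) and under DESeq2 (-0.0055). Opa1 was at 95.6, 99.3, 118 and 109 CPM in Low Control and at 74.4, 113, 101 and 90.8 CPM in Low Run mice, a difference of -0.15 ± 0.172 (SE). Its groups overlapped, and the difference was -0.05 without D57 and -0.26 without D61. Chchd3 reached 397 CPM in Low Run mouse D68 against 240 to 308 in Low Control mice, and its difference of 0.16 was -0.0030 without D68. Mtx1 (0.24), Apoo (0.15), Dnajc11 (0.09) and Mtx2 (-0.04) had edgeR FDRs between 0.435 and 0.941. With 1 mouse left out, Apoo was at 0.03 (without D11), Dnajc11 at 0.04 (without D9) and Mtx1 at 0.15 (without D57), and Mtx2 turned to 0.05 under upper-quartile scaling, which moved the median of all genes to 0.09.

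**Figure D2:**
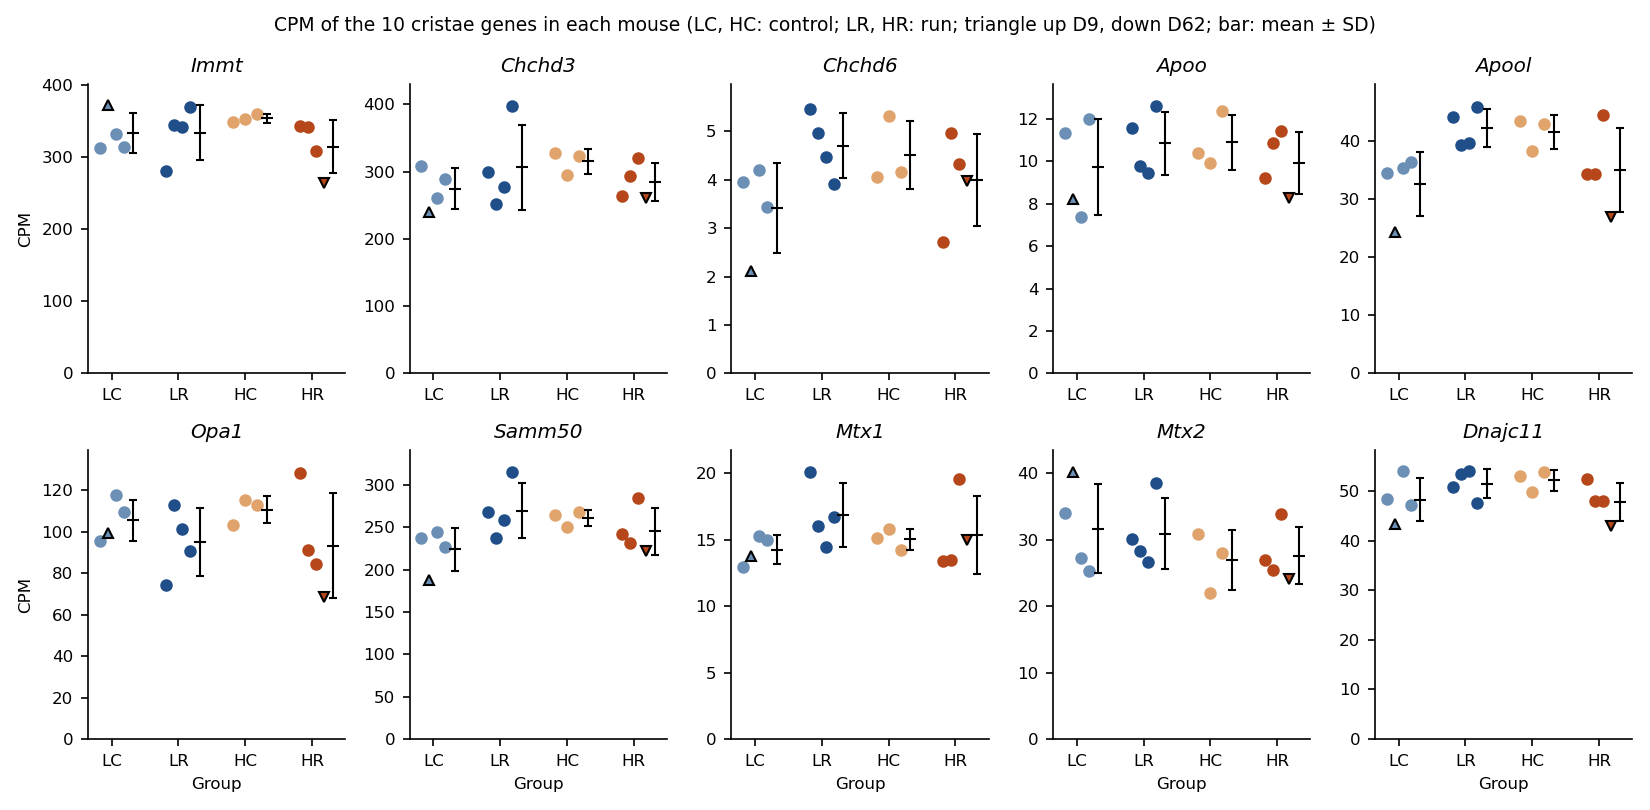
CPM of each member in each mouse by group (LC Low Control, LR Low Run, HC High Control, HR High Run), with the mean ± SD as a bar beside the points and mice D9 and D62 as black-edged triangles. The 4 Low Run mice lie at 39.3 to 45.8 CPM for Apool, above all Low Control mice, while most other panels show overlapping groups.

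The same question was asked in High mice, with 3 High Control and 4 High Run libraries. No member passed at an FDR of 0.1 (edgeR), nor did any of the 16920 genes (0%), while DESeq2 called 15 genes and no member. At an unadjusted p under 0.05, 555 genes (3.28%) were higher and 322 (1.9%) lower in High Run mice, and no member was in either set. The log2 fold change was below 0 for 8 members and above 0 for Mtx1 (0.03) and Mtx2 (0.04), with a median of -0.14 beside 0.05 over all genes tested.

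Immt was at 349, 353 and 360 CPM in High Control mice D23, D25 and D67, and at 344, 342, 309 and 264 CPM in High Run mice D49, D52, D53 and D62. All High Run mice lay below all High Control mice, D49 and D52 by only a few CPM. The log2 fold change was -0.17 ± 0.131 (SE, 95% interval -0.459 to 0.119, edgeR FDR 0.958), and it was -0.10 without D62. Non-overlap in this direction held for 3.6% of all genes and in the other for 3.47%, and Immt was the only such member.

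Apool was at 43.4, 38.1 and 42.9 CPM in High Control and at 34.2, 34.3, 44.3 and 26.8 CPM in High Run mice. D53 held the highest value of all 7 mice and D62 the lowest, so the groups overlapped. The difference was -0.25 ± 0.170 (SE, edgeR FDR 0.956), with -0.15 without D62 and -0.39 without D53. Relative to its mean, Opa1 had the widest spread of the members in High Run mice (SD 27.2% of the mean). It was at 128, 91.3, 84.5 and 68.3 CPM, against 103, 115 and 113 CPM in High Control mice. The highest and lowest of the 7 mice had both run. The difference was -0.25 ± 0.186 (SE, edgeR FDR 0.958), -0.45 without D49 (FDR 0.716) and -0.13 without D62. Chchd3 (-0.15), Chchd6 (-0.17), Apoo (-0.13), Dnajc11 (-0.13) and Samm50 (-0.09) all had overlapping groups, with edgeR FDRs between 0.958 and 0.973. Several rested on 1 mouse: Chchd6 was at -0.04 without D25 or without D49 and -0.30 without D52, Apoo at -0.03 without D67 and -0.20 without D53, and Samm50 at -0.17 without D53 and -0.05 without D62. The signs of Mtx1 and Mtx2 turned in some of the other fits.

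The Frailty × Run interaction asks whether the difference between Run and Control mice was the same in High as in Low mice, as the High log2 fold change minus the Low one. It draws on the same 15 mice, so its values restate those above and are no independent set. No member passed the edgeR test, and no gene did (0%). Before adjustment, 887 genes (5.24%) above 0 and 455 (2.69%) below 0 had a p under 0.05, and Apool was the 1 member among the latter. DESeq2 called 0 genes as well. The value was below 0 for 9 members, with a median of -0.25 beside 0.03 over all genes tested.

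Apool had an interaction of -0.62 ± 0.233 (SE, 95% interval -1.13 to -0.109), at an unadjusted edgeR p of 0.0163 and an FDR of 0.600. In each of 23 other fits it stayed below 0 with an unadjusted p under 0.05, from -0.76 without D53 to -0.40 without D9 and D62, and with FDRs from 0.320 to 0.996. Chchd6 had a value of -0.63 ± 0.342 (SE) and Samm50 one of -0.36 ± 0.185, both at an edgeR FDR of 0.600, and without D9 and D62 these were -0.45 and -0.23. Chchd3 (-0.30), Apoo (-0.28), Dnajc11 (-0.22), Mtx1 (-0.21) and Immt (-0.17) were smaller in size. The 95% interval of each of them, and those of Chchd6 and Samm50, included 0. Without D9 and D62, Chchd3 was at -0.20, Apoo at -0.13 and Dnajc11 at -0.12. With offsets for gene length and GC content, Dnajc11 was at 0.29 in Low mice and -0.49 for the interaction (edgeR FDR 0.422 and 0.628). In Low mice these offsets took Chchd3 to 0.05 and Apoo to 0.02. For the interaction they gave -0.29 for Immt and -0.19 for Opa1. With 1 mouse left out, Chchd3 was at -0.15 without D68, Apoo at -0.17 without D11, Mtx1 at -0.12 without D57 and -0.35 without D53, and Immt at -0.10 without D62. Opa1 stood at -0.09 ± 0.253, its log2 fold change being negative in Low and in High mice, and at 0.06 without D9 and D62. Mtx2, at 0.07 ± 0.258, was the 1 member above 0.

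**Figure D3:**
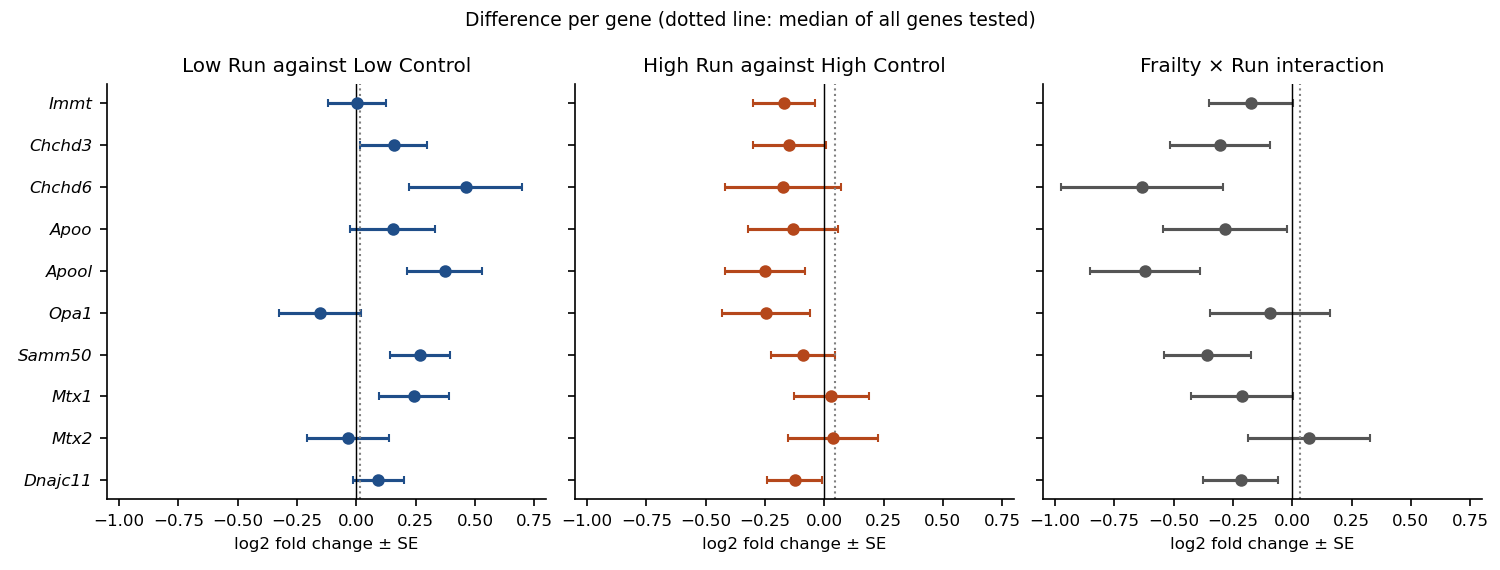
Log2 fold change ± SE of each member in Low mice (left), High mice (middle) and for the Frailty × Run interaction (right), with a dotted line at the median of all genes tested. In Low mice 8 members lie to the right of 0, with Chchd6, Apool and Samm50 farthest. In High mice 8 members lie to the left, with Apool and Opa1 farthest. Apool and Chchd6 lie farthest left in the interaction, where no value passed an FDR of 0.1.

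Sedentary mice were then compared by frailty. In High Control against Low Control mice, no member and no gene (0%) passed an FDR of 0.1 by edgeR. At an unadjusted p under 0.05, 305 genes (1.8%) were higher, 687 (4.06%) lower and no member in either, and DESeq2 called 0 genes. The log2 fold change was above 0 for 9 members, with a median of 0.14 beside -0.02 over all genes tested, and Mtx2 was at -0.23 ± 0.190 (SE), or -0.11 without D9 or without D25. A reference list of 20 genes of other mitochondrial functions had 17 above 0 and a median of 0.15 here, with 8 of the 20 without overlap and higher, beside 2 of the 10 members. Low Control mouse D9, low for several members, enters this comparison and the Low one alike. Apool (0.35 ± 0.171, edgeR FDR 0.704) and Samm50 (0.22 ± 0.135, edgeR FDR 0.704) had all 3 High Control mice above all 4 Low Control mice. For Samm50 these were 264, 250 and 269 CPM against 245 at most. Non-overlap held for 5.13% (higher) and 5.27% (lower) of all genes tested. Without D9, Apool stood at 0.23 and Samm50 at 0.14.

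In run mice, High Run compared to Low Run gave log2 fold changes below 0 for all 10 members, from -0.27 ± 0.158 (SE) for Apool to -0.03 ± 0.172 for Opa1, with a median of -0.13 beside 0.01 over all genes. In the mitochondrial reference list 17 of 20 were below 0, with a median of -0.10. Apool was at -0.17 without D62 and at -0.41 without D53 (edgeR FDR 0.772). With all mice, the edgeR FDR of each member was 0.999, no gene passed (0%), and DESeq2 called 0. Before adjustment, 257 genes (1.52%) higher and 167 (0.987%) lower had a p under 0.05, without a member. The groups overlapped for every member, where non-overlap held for 0.721% (higher) and 0.774% (lower) of all genes. The sign of Opa1 turned without D62 (0.09), D61 (0.06), D53 (0.02) or D66 (0.006), each left out alone. That of Chchd3 turned to 0.04 without D68, and those of Opa1 and Apoo turned with quality weights per mouse.

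Mouse by mouse, the members' median deviation from their means on the log2 scale was lowest in High Run mouse D62 (-0.24), where 0 of 10 members were above their mean, and in Low Control mouse D9 (-0.24), where 3 were. It was highest in Low Run mouse D68 (0.23) and in High Run mouse D53 (0.15). D9 was uneven: Chchd6, Apool, Samm50 and Chchd3 had their lowest levels of all mice there, and Immt and Mtx2 their highest. The mitochondrial reference list stood at -0.25 in D62, -0.14 in D9, 0.31 in D68 and 0.22 in D53, so the mice at the ends were the same in both lists. Without D9 and D62, the members' median log2 fold change was 0.09 in Low mice, -0.09 in High mice and -0.17 for the interaction.

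**Figure D4:**
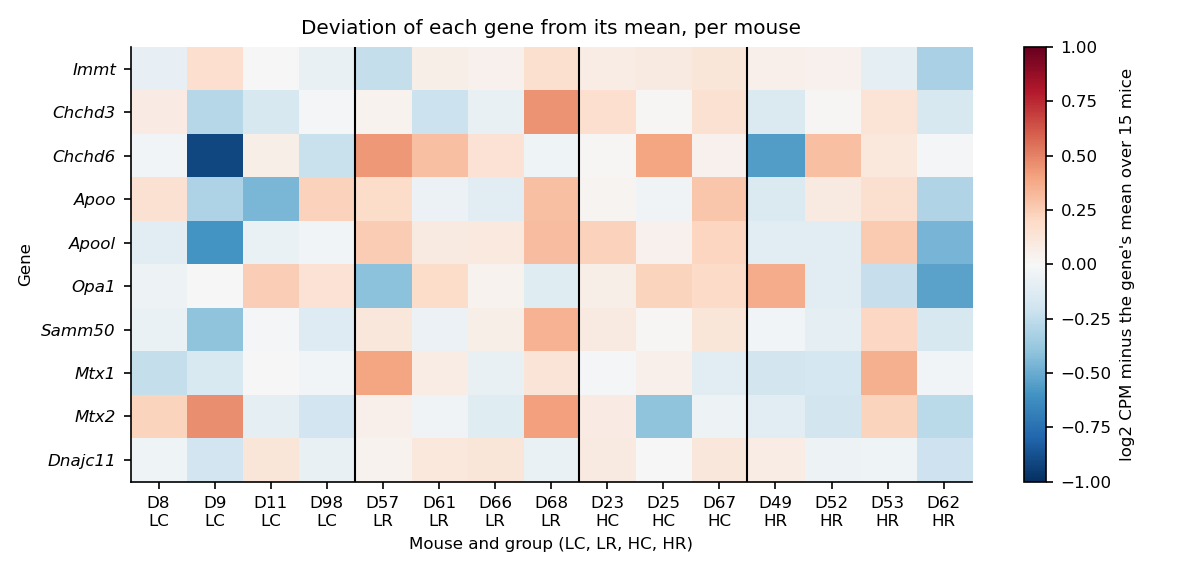
Log2 CPM of each member in each mouse minus that gene's mean over 15 mice, with vertical lines between the groups. D62 is below the mean in all 10 rows, while D9 is low for Chchd6 and Apool and high for Mtx2 and Immt.

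Across the 15 mice, which share their libraries and scaling among genes, the members did not all move together. The median Pearson r over 45 pairs was 0.277 on log2 CPM, 35 pairs were above 0, and the median was 0.157 for deviations from group means and 0.0827 without D9 and D62. Whether other sets of genes moved together as much was not tested. Apool and Samm50 had the highest r, 0.905 (0.868 within groups, 0.860 without D9 and D62, Spearman's rho 0.907). Chchd3 followed Samm50 (0.823, and 0.771 without these mice), Apoo (0.784 and 0.716) and Apool (0.723 and 0.642). Apoo was less close to Apool (0.669) and Samm50 (0.579), and without D9 and D62 these fell to 0.485 and 0.382. Pairs with the metaxins then stood above them, such as Apool with Mtx1 (0.713), Samm50 with Mtx2 (0.660) and Chchd3 with Mtx2 (0.647), which over all 15 mice were at 0.564, 0.120 and 0.304. The closeness of Samm50 to Apool and to Chchd3 was thus high with and without these mice, and that of Apoo to Apool and Samm50 rested partly on them.

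Immt did not share that pattern, with an r of 0.155 with Chchd3, its partner in the mitofilin arm, 0.129 with Apool and 0.0623 with Samm50. Its closest member was Opa1 (r = 0.696, 0.575 without D9 and D62, Spearman's rho 0.457). Opa1 was in turn close to Dnajc11 (0.583, and 0.470 without these mice) and opposite in sign to Mtx1 (-0.439). The lowest r of all pairs was that of Chchd6 and Mtx2 (-0.447), but it was -0.160 without D9 and D62, where Opa1 with Mtx1 (-0.604) and Apoo with Dnajc11 (-0.603) were lowest. Among all 16920 genes tested, those most like Immt over the 15 mice were Sdha (0.896), Gfm1 (0.894), Pdha1 (0.867), Timm29 (0.858) and Pex11a (0.856). Among those most like Opa1 were Rhoq (0.936), Gm13422 (0.921), Asb1 (0.915) and Calu (0.915). Each is the highest of many correlations over 15 mice, and without D9 and D62 those named ran from 0.713 (Pex11a with Immt) to 0.905 (Rhoq with Opa1).

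**Figure D5:**
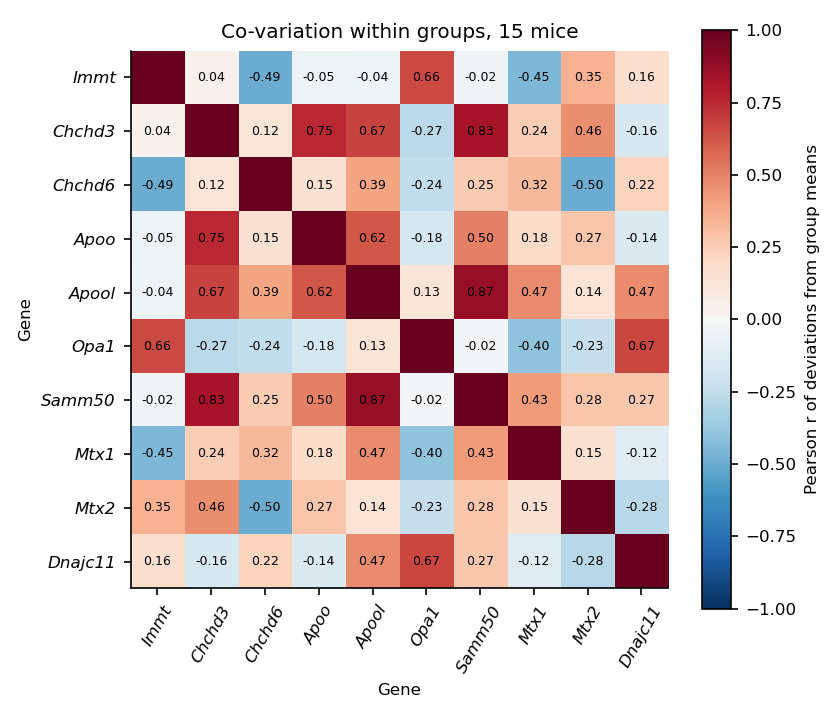
Pearson r between members over 15 mice, from deviations of log2 CPM from the group means. Chchd3, Apoo, Apool and Samm50 form a block of r from 0.50 to 0.87, and Immt and Dnajc11 are closest to Opa1, at 0.66 and 0.67.

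A wider list of 30 genes held the remaining MICOS subunits, proteases that cut Opa1, prohibitins, fusion and fission factors, cardiolipin enzymes and the subunits that join ATP synthase into pairs at cristae edges. All 30 were tested, and none passed an FDR of 0.1 in any comparison by edgeR. In Low Run against Low Control, 20 were above 0 and 10 below (median 0.05), with 2 higher and 1 lower at an unadjusted p under 0.05, where all genes had 5.92% and 7.52%. In High Run against High Control 12 were above and 18 below (median -0.08), with 0 higher and 1 lower (all genes 3.28% and 1.9%), and in the interaction 11 above and 19 below (median -0.15), with 1 each way (all genes 5.24% and 2.69%). Between sedentary mice there were 18 above and 12 below (median 0.06), with 0 each way (all genes 1.8% and 4.06%). In High Run against Low Run there were 10 above and 20 below (median -0.07), with 0 higher and 2 lower, Chchd10 (-0.36 ± 0.141) and Mief2 (-0.33 ± 0.139), where all genes had 1.52% and 0.987%. These 2 values were not fitted again without D9 and D62. Groups without overlap in the wider list numbered 2 higher and 1 lower in Low mice (all genes 3.35% and 3.59%), 0 and 2 in High mice (3.47% and 3.6%), 4 and 1 between sedentary mice (5.13% and 5.27%), and 0 and 1 (Chchd10) between run mice (0.721% and 0.774%). The 2 in High mice were Chchd10 and the fission factor Mff (-0.14), which was named after its values were seen. The reference list of 20 mitochondrial genes had medians of 0.11, -0.05 and -0.25 in these comparisons, beside the members' 0.16, -0.14 and -0.25.

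Of the remaining MICOS subunits, 2410015M20Rik (MIC13), which joins the arms of the complex, was at 31.9 ± 5.49 CPM in Low Control and 43.3 ± 8.58 in Low Run mice (SD, n = 4 each), a log2 fold change of 0.44 ± 0.170 (SE, edgeR FDR 0.358). In High mice it was at 38.9 ± 0.686 CPM in Control and 41.2 ± 7.44 in Run, a difference of 0.08. Minos1 (MIC10), which bends the membrane at the junction, differed by 0.36 ± 0.193 in Low and -0.12 ± 0.209 in High mice, with overlapping groups. Between sedentary mice, Minos1 (0.33) and 2410015M20Rik (0.29) were higher in High Control than in Low Control mice, without overlap. Atp5k, the e subunit of ATP synthase that helps hold the enzyme in pairs, was at 105 ± 22.3 CPM in Low Control and 146 ± 10.1 in Low Run mice, with every run mouse above every control mouse (0.48 ± 0.203, edgeR FDR 0.358). In High mice it differed by -0.10. Oma1, a protease that cuts Opa1 under stress, also had no overlap in Low mice (0.36 ± 0.173, edgeR FDR 0.372). Without D9 and D62 the Low differences were 0.31 for 2410015M20Rik, 0.21 for Minos1, 0.33 for Atp5k and 0.19 for Oma1, and the High differences of Minos1 and Atp5k turned to 0.01 and 0.04.

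Mief1, an adaptor that brings the fission GTPase to the outer membrane, was the listed gene with the smallest p in Low mice. It was at 33.2 ± 6.63 CPM in Low Control and 24.3 ± 2.53 in Low Run mice, without overlap (-0.45 ± 0.148, edgeR FDR 0.358), and its interaction was 0.54 ± 0.218. Mief1 was also lower without overlap in High Control than in Low Control mice (-0.32 ± 0.159, edgeR FDR 0.704). Its paralog Mief2 stood at 0.19 in Low mice, -0.19 in High mice and an interaction of -0.39 ± 0.204. Chchd10, a protein of the intermembrane space, was at 536 ± 41.3 CPM in High Control and 427 ± 61 in High Run mice, without overlap (-0.33 ± 0.152, edgeR FDR 0.956). Its interaction was -0.54 ± 0.207 (edgeR FDR 0.600). Mfn1, a mitofusin of the outer membrane, stood at -0.26 ± 0.132 in Low and -0.17 ± 0.143 in High mice. Without D9 and D62 the Low difference of Mief1 was -0.31 and its interaction 0.30, the High difference of Chchd10 was -0.24 and its interaction -0.34, and Mief2 was at 0.10 in Low mice, -0.12 in High mice and -0.22 for the interaction.

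The makeup of the muscle samples was followed with marker lists, all of whose genes were found and tested. The 10 myofibre markers summed to 207694 to 237974 CPM in High Control and 167474 to 192303 CPM in High Run mice. These sums did not overlap, beside the lower Immt in High Run mice. The 5 adipocyte markers summed to 76.3 to 96.6 CPM in Low Control and 45 to 65.4 CPM in Low Run mice, again without overlap, beside the higher Apool in Low Run mice. The 4 neutrophil markers reached 395 CPM in Low Run mouse D68, the mouse with the highest Chchd3, Samm50 and Apool, against 8.57 to 11.7 CPM in the rest of its group, and 1 of them (Ly6g) was at 0 in 6 mice. The 6 slow myofibre markers, of fibres rich in mitochondria, overlapped between all groups, with 1614 to 2675 CPM in Low Control, 1753 to 3254 after running in Low mice, 1396 to 2222 in High Control and 1633 to 4101 in High Run mice. D62, lowest for Immt and Opa1, held the highest slow-fibre sum. It also held the lowest myofibre sum (167474 CPM), the lowest fibroblast sum (600 CPM) and the highest Schwann cell sum (216 CPM) of all mice. The endothelial, fibroblast, macrophage, erythroid and Schwann cell sums overlapped between Run and Control in both frailty groups. Between sedentary mice, where Apool and Samm50 did not overlap, the endothelial sums did not either, at 225 to 247 CPM in Low Control and 196 to 223 in High Control mice, nor did the erythroid sums, at 489 to 2380 and 312 to 488 CPM. The part of these markers in the members' levels was not tested.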

How the data were processed

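Gastrocnemius RNA from 15 mice was sequenced by the submitters as polyadenylated RNA. Alignment by the authors was to mm10 (STAR 2.7.9a), and they counted uniquely aligned proper pairs on the gene's strand with featureCounts against Ensembl build 100, for genes outside the mitochondrial chromosome (Subread 2.0.3 in the submitters' processing notes; the methods name an older release). The deposited counts are whole, without normalization. A deposited variance-stabilized table and the transcripts of the mitochondrial chromosome were not used here. All columns were mapped to mice (0 left out), and the labels name no batch.

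Genes were filtered with filterByExpr, scaled by TMM and tested with edgeR 4.0.16 (quasi-likelihood F-test, 1 mean per group, all 15 mice), with Benjamini-Hochberg adjustment over 16920 genes and calls at an FDR of 0.1. SEs came from limma 3.58.1 (voom, same design), and each 95% interval is edgeR's log2 fold change plus and minus the SE times the t quantile for 11 residual degrees of freedom. Log2 CPM used a prior count of 2. R 4.3.3 was used. Annotation was GENCODE M21, in which 55190 of 55450 counted genes have a symbol. Of the counted genes, 20031 had 0 counts in every mouse. Total counts ran from 19395125 to 30699216, and each library is 1 mouse.

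The members and all lists were chosen with earlier results of these data known. Named genes were all members, Minos1, 2410015M20Rik, the 6 other wider-list genes with the smallest edgeR p in the first 3 comparisons, and the 5 genes most correlated with Immt and with Opa1, of which 1 is not reported here. The members' comparisons share mice: each control group enters 3 of the 5.

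Alternatives were DESeq2 1.42.0, RLE or upper-quartile scaling, no filter, at least 10 counts in every mouse, voom with quality weights, offsets for length and GC content (loess span 0.3), only the groups compared, an FDR of 0.05, each mouse left out, and D9 and D62 left out. The steps were tested on simulated data for High Run against High Control (16920 genes, 200 changed): at an FDR of 0.1 edgeR recovered 44 of 100 genes changed by 1 on the log2 scale and 78 of 100 changed by 2, with 14 false calls. DESeq2 recovered 59 and 84, with 37 false calls.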

Additional observations from a re-analysis of the deposited data

Results flagged for a closer look

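Apool in Low Control mouse D9 was at 24.4 CPM, far below the 34.4, 35.3 and 36.3 CPM of the other Low Control mice. Its gap to the nearest of them, as a share of the group's range, passed Dixon's 95% critical value for 4 mice. It was the 1 value to do so in 30 groups of 4 mice tested (10 genes in Low Control, Low Run and High Run), and chance gives about 1 in 20 such groups. D9 also held the lowest Chchd6, Samm50 and Chchd3 levels and the highest Immt and Mtx2 levels of all 15 mice.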

How the results depend on the processing

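No member was called under any alternative, with a smallest FDR of 0.253 (Apool, Low mice, without D98). Of 890 alternative values of the 50 member results, 853 kept their direction and side of the threshold and 37 had the opposite sign. No paired analysis was possible because the mice carry no shared replicate numbers.

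Genes called, 0 by edgeR in each comparison, were 10 in Low and 15 in High mice with DESeq2, 86 in Low mice, 19 in High mice, 4 for the interaction and 6 for High Run against Low Run with no filter, and 45 in High mice with quality weights. Of the log2 values with opposite sign, in Low Run against Low Control, Immt was at -0.0055 with DESeq2 and -0.0044 with RLE scaling, and Mtx2 at 0.0491 with upper-quartile scaling, 0.0231 with quality weights and 0.0887 without D9 and D62. In High Run against High Control, Mtx1 was at -0.0925 with quality weights, and Mtx2 at -0.0089 with quality weights and -0.0036 with length and GC offsets. For the interaction, Opa1 was at 0.0583 without D9 and D62, and Mtx2 at -0.0320 with quality weights and -0.0014 without D9 and D62. In High Run against Low Run, Apoo was at 0.0058 and Opa1 at 0.0038 with quality weights, and Opa1 at 0.0920 without D9 and D62. For the named genes of the wider list, only the fit without D9 and D62 was run, an alternative chosen after seeing the data: in High Run against High Control it gave 0.0137 for Minos1, -0.0100 for Mief1, 0.0419 for Atp5k and 0.0188 for Oma1, all of opposite sign to the values with all mice. The cause was not tested.

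With 1 mouse left out in turn, values ran from -0.0570 to 0.0786 (Immt), -0.0030 to 0.23 (Chchd3) and -0.168 to 0.0888 (Mtx2) in Low mice, from -0.109 to 0.0812 (Mtx1) and -0.0926 to 0.143 (Mtx2) in High mice, from -0.288 to 0.0303 (Opa1) and -0.0604 to 0.196 (Mtx2) for the interaction, and from -0.191 to 0.0416 (Chchd3) and -0.226 to 0.0918 (Opa1) in High Run against Low Run. The members' median ran from 0.09 (without D9) to 0.23 (without D98) in Low mice, from -0.19 (without D53) to -0.09 (without D62) in High mice, from -0.35 to -0.20 for the interaction (the same mice), from 0.10 to 0.18 in sedentary mice and from -0.21 to -0.05 in run mice. In simulation 44 of 100 genes with a log2 change of 1 were recovered by edgeR in High Run against High Control, and the members' differences were smaller than that. The lowest counts, those of Chchd6, carry the widest error.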
